A study of Mus musculus with 2 samples.

Results

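The genes described here are the 6 microRNA (miRNA) genes that lie inside the mouse Hox clusters: Mir10a, Mir10b, Mir196a-1, Mir196a-2, Mir196b and Mir615. They were chosen by name, by matching the Ensembl identifiers of the deposited count files to GENCODE gene symbols, and all 6 were among the 1973 listed miRNA genes. The study sequenced small RNA, in a size range under 30 nt, from limb tissue of healthy B6NCrl mouse embryos at embryonic day 11.5, with males and females pooled. The labels do not say which limbs were taken. There was 1 group, with no mutant allele or agent named: biological replicate 1 came from 109 embryos and biological replicate 2 from 88. The labels give both pools the same donor identifier, so all errors and p-values below speak for these 2 libraries only. SDs measure the spread between the libraries. Counting errors and Wilson intervals cover the counting of reads alone. P-values set the difference between the libraries against counting error, widened where stated. Limb tissue holds many cell types, and fewer cells of a type cannot be told apart from less miRNA per cell.

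Hox genes encode homeodomain transcription factors that set position along the body axis and along the limb, and they stand in 4 clusters in an order that matches their domains of expression. A miRNA is cut from a hairpin precursor, and one arm of the hairpin, or both, becomes the mature strand that guides repression of messenger RNAs. The bases near its 5′ end, the seed, do most of the target pairing. The miR-10 and miR-196 families arose within the ancestral Hox cluster, and miR-196 is known to direct cleavage of Hoxb8 messenger RNA in the mouse embryo, with a described role in the hindlimb. The miR-10 family is transcribed with Hox genes of the fourth paralog group. Mir615 is hosted by Hoxc5.

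The mature sequences come first because they decide which of these genes can be told apart by counting reads. RefSeq (GRCm38.p6) gave 12 mature entries for the 6 genes, under 11 names, each 22 or 23 nt long. The arms that carry the family seeds are printed 5′ to 3′, with the seed (bases 2 to 8) in capitals.
miR-10a-5p: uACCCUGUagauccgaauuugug
miR-10b-5p: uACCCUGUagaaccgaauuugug
miR-196a-5p: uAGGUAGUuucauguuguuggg
miR-196b-5p: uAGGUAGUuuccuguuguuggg
miR-615-3p: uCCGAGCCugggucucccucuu
miR-615-5p: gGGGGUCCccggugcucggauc
Counted from 1 at the 5′ end, the miR-10 arms differ by the single substitution U12A (miR-10a to miR-10b). The miR-196 arms differ by the single substitution A12C (miR-196a to miR-196b). Each pair therefore shares its seed, and no other mature name of the 1679 in the RefSeq table has ACCCUGU or AGGUAGU in that place. No other mature miRNA in the table shares either seed of Mir615. The miR-615 arms are rich in G and C, at 77.3% for the 5p and 63.6% for the 3p arm, against 40.9% to 45.5% for the miR-10 and miR-196 5p arms.

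Only the Mir196a genes share a whole arm. The 22 nt of miR-196a-5p occur in the hairpins of both Mir196a-1 and Mir196a-2, in capitals here.
Mir196a-1 hairpin: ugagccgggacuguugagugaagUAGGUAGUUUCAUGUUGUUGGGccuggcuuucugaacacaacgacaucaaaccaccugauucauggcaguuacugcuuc
Mir196a-2 hairpin: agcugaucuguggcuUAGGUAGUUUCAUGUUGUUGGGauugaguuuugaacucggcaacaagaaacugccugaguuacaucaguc
The shared stretch ends at both arm boundaries, because the base before it is G in Mir196a-1 and U in Mir196a-2, and the base after it is C and A. A read of exactly the annotated 5p arm fits both loci. The 3p arms are distinct, and their sequences show how different they are.
miR-196a-1-3p: cAACGACAucaaaccaccugau
miR-196a-2-3p: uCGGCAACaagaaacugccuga
The deposited files count reads that fit several places on a line of their own: 1644176 such reads in replicate 1 and 1738400 in replicate 2, or 24.7% and 23.4% of all reads. Which miRNAs those reads belong to is not recorded, so the counts of Mir196a-1 and Mir196a-2 can be too low by an unknown amount. For the remaining 4 genes no mature arm occurs whole in any other of 2202 annotated miRNA hairpins, and the longest stretch that any of their arms shares with another hairpin is 12 nt. A read that spans base 12 separates miR-10a from miR-10b, and miR-196a from miR-196b, if no mismatch was allowed, a setting that is not given in the sources used here. If mismatches were allowed, the counts of Mir10a, Mir10b and Mir196b can also be off by an unknown amount.

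The hairpins fall at 2 places along the clusters (mm10 assembly, all on the strand of their Hox cluster). Those of the Mir196 genes lie just before the group 9 Hox genes. Mir196b, in cluster A at chr6:52230081-52230165, lies 4.02 kb before the coding start of Hoxa9, in an exon of 2 Hoxa9 transcripts and an intron of 1 other. Mir196a-1, in cluster B at chr11:96265164-96265265, lies 6.33 kb before the coding start of Hoxb9 and outside any annotated host transcript. Mir196a-2, in cluster C at chr15:102973350-102973434, lies 8.26 kb before that of Hoxc9, in an intron of a single long Hoxc5 transcript.

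The other hairpins lie beside Hox genes of groups 4 and 5. Mir10a, in cluster B at chr11:96317165-96317274, stands between Hoxb5 and Hoxb4, 1.55 kb before the coding start of Hoxb4, in no host transcript. Mir10b, in cluster D at chr2:74726070-74726137, lies 1.18 kb before the coding start of Hoxd4, in introns of 2 Hoxd4 transcripts and 1 Hoxd3 transcript. Mir615, in cluster C at chr15:103014910-103015001, sits within Hoxc5, 0.874 kb past its coding start, in an intron of 2 Hoxc5 transcripts. Among the 1894 listed genes that matched GENCODE M21, no gene besides these 6 lies within the spans of the 4 clusters. Identifiers without a match have no position here. GENCODE M21 annotates 1 further miRNA gene there, Gm44463 in cluster D, which the counted annotation does not list.

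**Figure D1:**
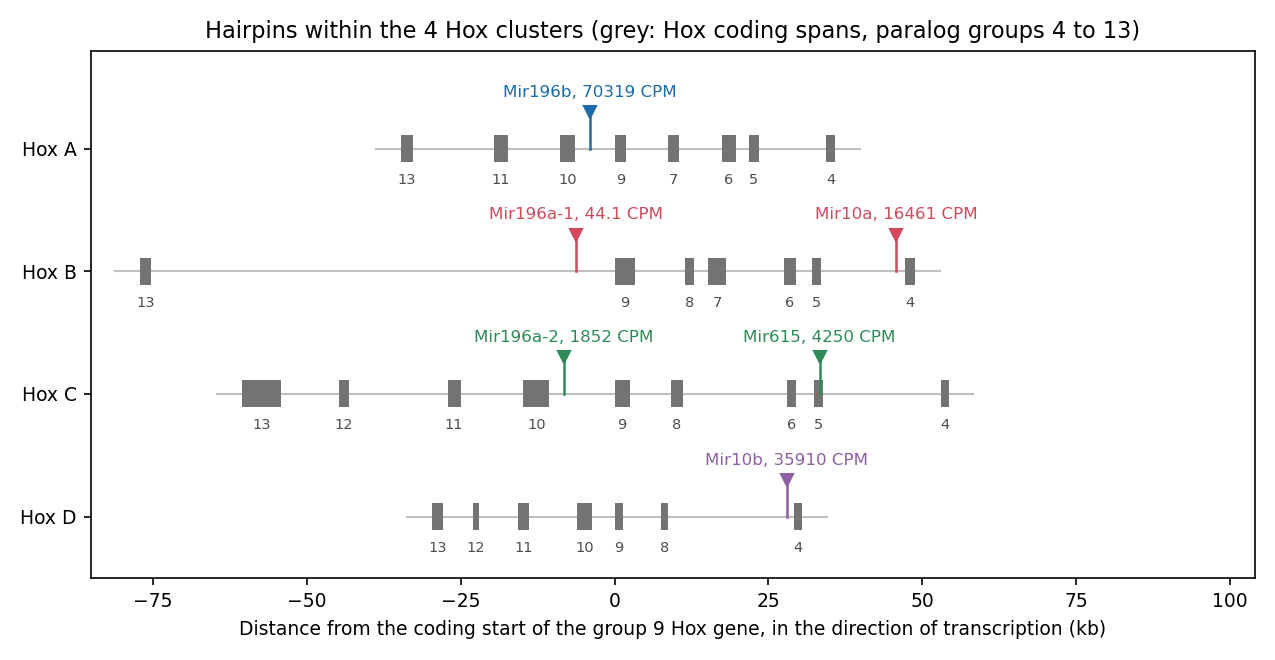
Positions of the 6 hairpins (triangles, with the mean level in CPM, sense-strand reads scaled to a library total of 1000000) in the Hox A to D clusters; the x axis is the distance in kb from the coding start of the group 9 gene of each cluster, in the direction of transcription, and grey bars are coding spans of paralog groups 4 to 13 with their group number. The 3 Mir196 hairpins lie 4.02 to 8.26 kb before the group 9 gene, and the other 3 lie 28.0 to 45.7 kb past its start.

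Levels are given as sense-strand reads per gene and as CPM, that count scaled to a total of 1000000 sense counts per library. They are counts per gene, with both arms merged, and were not divided by length, since the mature arms are 22 or 23 nt long. Whether different miRNA sequences were captured equally well was not tested, so comparisons between genes are of counted reads and not of amounts. Mir196b, of cluster A, held the highest count, with 213129 reads (72172 CPM) in replicate 1 and 236837 reads (68466 CPM) in replicate 2. It had rank 2 of all listed genes in replicate 1 and rank 4 in replicate 2. Its range of CPM overlapped that of Mir17, the next gene above it in mean level (71052 and 72565 CPM), and stood clear of Mir214, the next below (40112 and 38032 CPM).

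Mir10b, of cluster D, followed with 105635 reads (35771 CPM) and 124698 reads (36048 CPM), rank 6 in both libraries. This was the most even of the 6 genes, with 35910 ± 196 CPM (SD, n = 2). It lay between Mir214 and Mir130a (31793 and 30690 CPM) and overlapped neither. Mir10a, of cluster B, had 47505 reads (16087 CPM) and 58237 reads (16836 CPM). Its values overlapped those of Mir26b just above it in mean level (17041 and 16443 CPM) and exceeded those of Mir93 below (13578 and 14024 CPM).

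Mir615 and Mir196a-2, both of cluster C, stood lower. Mir615 had 12432 reads (4210 CPM) and 14838 reads (4289 CPM), rank 48 in each library, between Mir21a (4541 and 4305 CPM) and Mir423 (3601 and 3618 CPM) with no overlap. Mir196a-2 had 5692 reads (1927 CPM) and 6143 reads (1776 CPM), ranks 71 and 76, and could not be separated from its neighbours Mir532 and Mir425. Mir196a-1, of cluster B, came last with 133 reads (45.0 CPM) and 149 reads (43.1 CPM), ranks 238 and 233. Its share of sense counts had Wilson 95% intervals of 0.00380% to 0.00534% and 0.00367% to 0.00506%, which cover counting error only, and its neighbours Mir19b-1 and Mirlet7c-1 overlapped it.

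**Figure D2:**
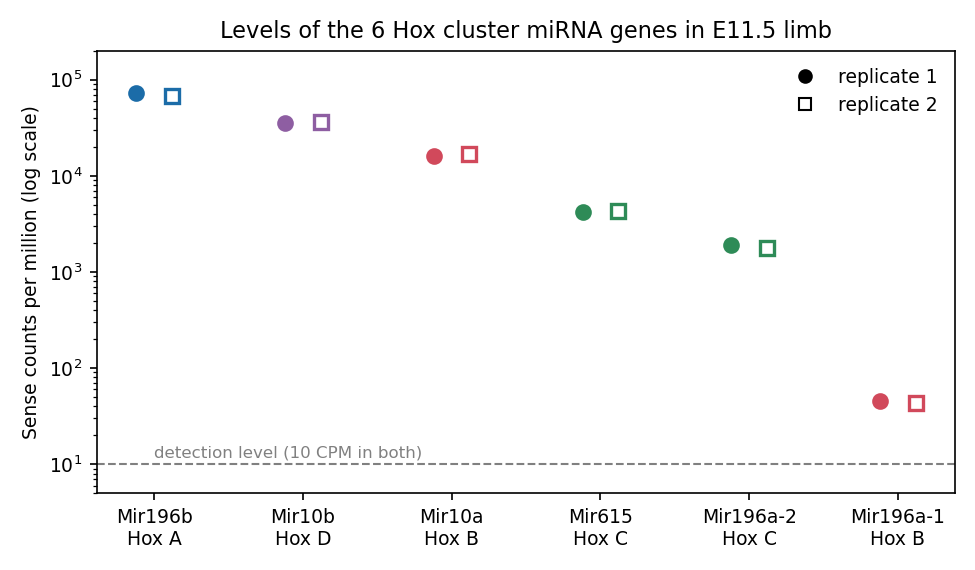
Level of each gene in CPM (log axis) in replicate 1 (filled circles) and replicate 2 (open squares), coloured by Hox cluster, with the detection level of 10 CPM dashed. The order is the same in both libraries, from Mir196b at 72172 and 68466 CPM to Mir196a-1 at 45.0 and 43.1 CPM.

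All 6 genes passed the detection level of 10 CPM in both libraries, as did 295 of the 1973 listed genes. The median level was 10355 CPM over the 6 genes and 262 CPM over the 295 detected ones. Opposite-strand reads at the 6 loci came to 1 in replicate 1, at Mir10a, and 0 in replicate 2.

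**Figure D3:**
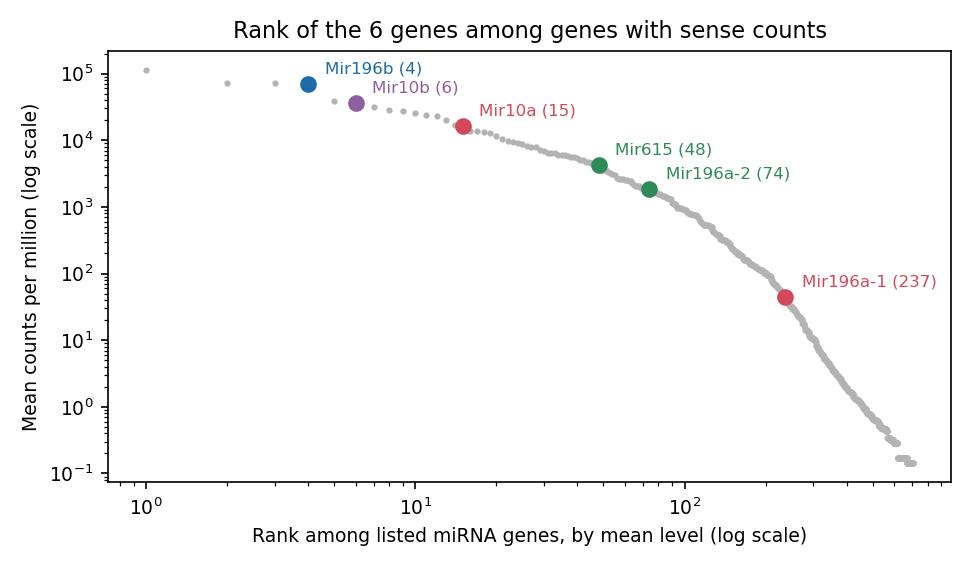
Mean CPM (log axis) of every listed gene with a sense count against its rank (log axis); the 6 genes are coloured by Hox cluster and carry their rank. Mir196b at rank 4, Mir10b at rank 6 and Mir10a at rank 15 lie at the upper end, and Mir196a-1 at rank 237 lies far down the curve.

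The 4 clusters contributed very unequally to these counts. Cluster A gave 7.03% ± 0.26 of all sense counts (SD, n = 2, as for the shares that follow) through Mir196b alone, and cluster D gave 3.59% ± 0.020 through Mir10b alone. Cluster B, with 2 hairpins, gave 1.65% ± 0.053, of which Mir196a-1 made up 133 of 47638 reads in replicate 1 and 149 of 58386 in replicate 2. Cluster C, also with 2 hairpins, gave 0.610% ± 0.0051. In counted reads, the difference between any 2 clusters was larger than the spread between the libraries.

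The totals of clusters B and C, of the hairpins beside group 9 and of the Mir196 family each include a Mir196a gene. Reads of the shared arm can be missing from them, so their size and order hold for the counted reads only. The unknown mismatch setting limits every total that holds a Mir10 or Mir196 gene. By position, the 3 hairpins beside group 9 held 7.22% ± 0.27 of the sense counts and the 3 beside groups 4 and 5 held 5.66% ± 0.078. Levels also differed within each position, with Mir196b above Mir196a-1 at the one and Mir10b above Mir615 at the other. By family, the Mir196 genes accounted for 56.0% ± 1.3 of the reads of the 6 genes and the Mir10 genes for 40.7% ± 1.2. These counts merge both arms, so they are not shares of a seed. Mir615 made up the remaining 3.30% ± 0.094.

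**Figure D4:**
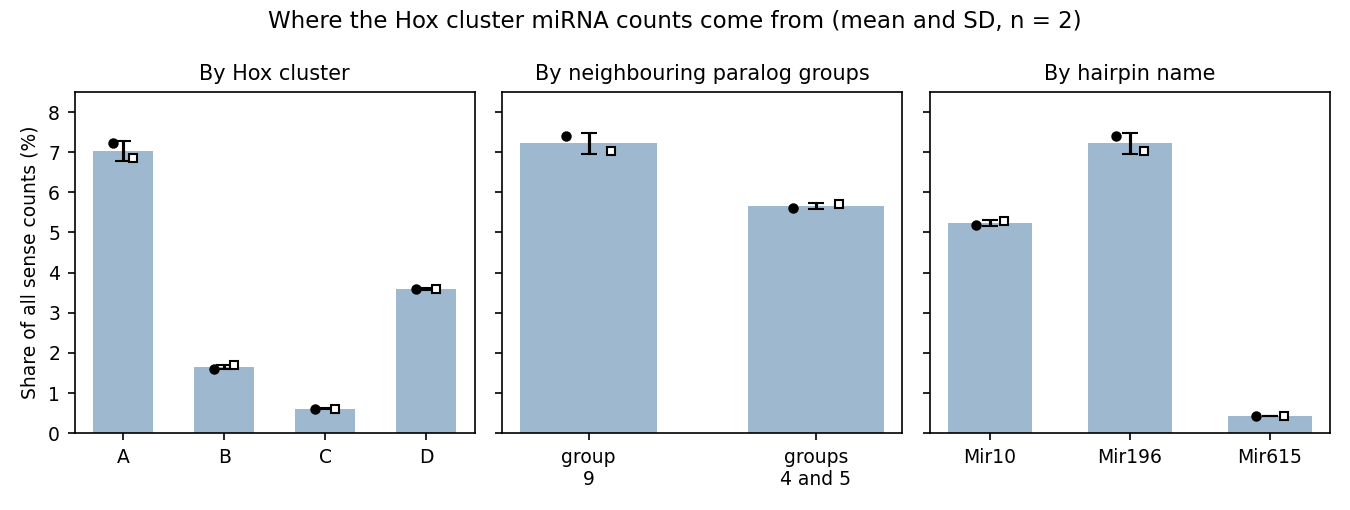
Share of all sense counts (%) by Hox cluster, by the paralog groups beside the hairpin and by hairpin name; bars are means, error bars the SD of 2 libraries, filled circles replicate 1 and open squares replicate 2. Cluster A holds 7.03% and cluster C 0.610%.

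Ratios of 2 genes within a library do not depend on how the libraries are scaled. Mir10b exceeded Mir10a, whose mature arm differs from its own by U12A alone, by 1.15 log2 units in replicate 1 and 1.10 in replicate 2, a mean of 1.13 ± 0.04 (SD, n = 2), or 2.18-fold. Counts per nucleotide of hairpin would put that ratio at 1.82, because the Mir10a hairpin is annotated at 110 nt and that of Mir10b at 68 nt. The ratio can also depend on the mismatch setting, which is not known. Mir196b exceeded Mir10b by 1.01 and 0.93 log2 units. Within cluster C, Mir615 exceeded Mir196a-2 by 1.13 and 1.27 log2 units, and within cluster B, Mir10a exceeded Mir196a-1 by 8.48 and 8.61.

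The Mir196 genes showed the widest range. Mir196b stood 5.23 and 5.27 log2 units above Mir196a-2, and Mir196a-2 stood 5.41 and 5.36 above Mir196a-1, with a counting error of 0.13 and 0.12 on the latter. Both ratios involve counts from which reads of the shared miR-196a-5p arm can be missing, so they are ratios of the counted reads and not of mature miR-196b to miR-196a. Files of this kind merge the 5p and 3p arms of a gene, so it was not possible to see which arm the 133 and 149 reads of Mir196a-1 came from. An exact sign-flip test of such ratios cannot go below p = 0.5 with 2 libraries, and none was run.

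How far the libraries repeat each other was tested gene by gene. The test was a two-sided exact binomial test of the 2 counts of a gene against library sizes scaled by TMM, with Benjamini-Hochberg adjustment at 0.05 over the 422 genes with 10 or more counts summed. It called 90 genes, 21.3% of those tested, with 40 (9.48%) higher and 50 (11.8%) lower in replicate 2. Among the 6 genes 3 were called, 1 higher and 2 lower. Genes with many reads are called at small differences: of the 93 genes at a mean of 1000 CPM or more, 65.6% were called, and 5 of the 6 genes belong to these. The share called is therefore close to that of equally abundant genes.

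The called differences were small. Mir10a was 1.04-fold higher in replicate 2 (log2 ratio 0.05, counting error 0.009, adjusted p = 3.6e-08, exact binomial test). Mir196b was 1.06-fold lower (log2 ratio −0.09, counting error 0.004, adjusted p = 2.2e-92, exact binomial test). Mir196a-2 was 1.10-fold lower (log2 ratio −0.13, counting error 0.027, adjusted p = 8.2e-06, exact binomial test). The median difference of the 93 abundant genes was 1.04-fold, and 59 of them differed by less than Mir196b.

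The other 3 genes did not pass. Mir10b had a log2 ratio of −0.002, Mir615 of 0.014 and Mir196a-1 of −0.078, with counting errors of 0.006, 0.018 and 0.172. The sign for Mir10b turned to 0.011 when total counts scaled the libraries. With counting error widened for the spread of the median gene, the same 3 genes passed, against 11.4% of all genes. The spread of abundant genes was not estimated separately. The percentages at this setting and the next cover all tested genes, not those as abundant as the called genes. Passing therefore does not set the called genes apart from equally abundant ones. With the larger mean spread over genes, only Mir196b passed, with an adjusted p of 0.00023, against 2.84% of all genes.

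**Figure D5:**
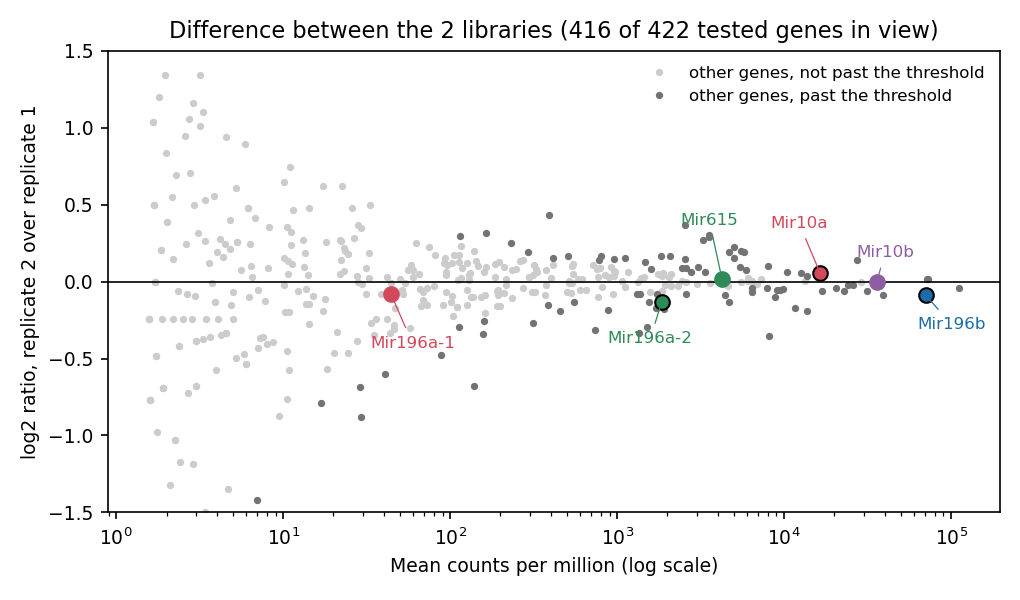
Log2 ratio of replicate 2 over replicate 1 (y axis) against mean CPM (log x axis) for 416 of the 422 tested genes, the rest lying beyond ±1.5; light grey points did not pass the exact binomial test, dark grey points did, and the 6 genes are coloured by Hox cluster with a black rim where they passed. Mir196b, at −0.09, and Mir196a-2, at −0.13, lie below the zero line and Mir10a, at 0.05, above it.

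Family ratios are given with their counting error and no test. The summed Mir196 reads exceeded the summed Mir10 reads by 0.52 log2 units in replicate 1 and 0.41 in replicate 2, a difference of −0.105 with a counting error of 0.0066. For Mir10 over Mir615 the values were 3.62 in both, with a difference of 0.001 and a counting error of 0.018. Marker miRNAs also differed between the libraries. The limb mesenchyme and cartilage list (Mir199, Mir214, Mir140 and Mir455 genes) summed to 5.81% of sense counts in replicate 1 and 5.40% in replicate 2, with 4 of 6 genes called lower and 0 higher. The ectoderm list (Mir203, Mir205 and the Mir200 family) summed to 1.32% and 1.53%, with 5 of 7 called higher and 0 lower. Over all tested genes 9.48% were called higher and 11.8% lower. Of the genes at 1000 CPM or more, 65.6% were called in either direction. That rate is not split by direction, and some markers of both lists lie below 1000 CPM. Whether the counts are particular to the lists was not tested, and they are not read so. No marker of either list was at 0, and their part in the Mir196 difference was not tested. Among the shorter lists, 1 of 2 erythroid genes was called higher (Mir451a), and endothelial Mir126a was called lower. No tested marker of muscle, neural tissue, liver or white blood cells was called.

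Relatives of miR-10 outside the Hox clusters were at similar levels. The longest stretch that the Mir100 hairpin has in common with miR-10a-5p is 11 nt. The seeds of miR-99 and miR-100, in capitals here, differ from that of miR-10.
miR-100-5p: aACCCGUAgauccgaacuugug
miR-99a-5p: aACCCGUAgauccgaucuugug
miR-99b-5p: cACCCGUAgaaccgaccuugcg
Mir99b, on chromosome 17, had 28591 and 28782 CPM and Mir99a, on chromosome 16, had 26017 and 28920 CPM. Mir100, on chromosome 9, had 7673 and 8298 CPM. Together these 3 held 6.41% ± 0.26 of the sense counts, beside 5.24% ± 0.073 for the 2 Mir10 genes. Both Mir99 genes lay between Mir10b and Mir10a in level without overlap, and Mir100 lay between Mir10a and Mir615.

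Between the libraries, 2 of these 3 relatives were called higher in replicate 2 (Mir99a and Mir100) and 0 lower, a share near the 65.6% of abundant genes that were called either way. The more distant miR-125 genes, which stand beside Mir99 and Mir100 genes in the genome, held 0.891% ± 0.0068. They were led by Mir125a at 6444 and 6324 CPM, with Mir125b-1 at 2125 and 2101 CPM and Mir125b-2 at 390 and 438 CPM. Of these, Mir125a was called lower and Mir125b-2 higher, at adjusted p of 0.027 and 0.035 by the exact binomial test. With the median spread neither passed (adjusted p of 0.4372 and 0.4701, normal test with widened error), while Mir99a and Mir100 still did.

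The seeds of the Hox cluster miRNAs have matches in Hox messenger RNAs. Such matches are sequence facts, and the deposited data hold no messenger RNA values to set beside them. Of 39 annotated Hox genes, 38 had a 3′ untranslated region (UTR) of 50 bases or more in GENCODE M21, and the longest per gene was searched on the transcribed strand. The 7-base match to the miR-196 seed, ACTACCT, stood in 9 of 38 Hox 3′ UTRs (23.7%) and in 6.22% of 20642 protein-coding 3′ UTRs, whose median lengths were 974 and 989 bases. Hoxa7 held 4 such matches and Hoxc8 held 2. Each of the remaining genes held 1. ACTACCT shares 6 letters with CTACCTC, the match to the let-7 seed, so sites of the 2 can overlap. The let-7 match itself was not searched. The match to the miR-10 seed, ACAGGGT, stood in 4 Hox 3′ UTRs (10.5%, against 12.7% of all). For miR-615-3p, GGCTCGG stood in 1, Hoxb4 (2.63%, against 2.34% of all).

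Pairing along the whole arm singled out 1 gene. The site of Hoxb8, a group 8 gene of cluster B, is printed 5′ to 3′ as DNA letters, with bases that pair with miR-196a-5p in capitals.
Hoxb8 3′ UTR site: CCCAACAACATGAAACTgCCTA
It begins at base 418 of the 3′ UTR and pairs at 21 of 22 positions, and the remaining position is a G:U wobble. That wobble lies in the seed, so Hoxb8 is not among the genes with an unbroken seed match. With miR-196b-5p, the same site pairs at 20 of 22 positions with 1 G:U wobble and a mismatch at position 12. Mir196b had more counted reads than the Mir196a genes, but reads of miR-196a-5p can be missing from their counts. The levels of these arms can therefore not be compared, and which of them acts on Hoxb8 was not tested. The next best ungapped site in any Hox 3′ UTR paired at 15 positions with either arm. For miR-10a-5p and miR-10b-5p the best sites paired at 14 and 15 of 23 positions.

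Depth was high for all but 1 of the genes. The files hold 2953085 sense counts for replicate 1 and 3459176 for replicate 2, or 44.3% and 46.6% of reads, so that a gene without any read could still stand at 1.02 and 0.867 CPM, the level of 3 counts. Markers of cell types were counted as a description, which does not test the label of limb tissue. All 6 listed for mesenchyme and cartilage and all 7 for ectoderm were detected. None of the 5 listed neural genes, at most 2.03 and 2.31 CPM for Mir9-3, reached 10 CPM. Hairpins with near-identical copies can be counted too low, so these counts cannot show whether neural tissue was absent. Hepatocyte Mir122 had 21.7 and 14.7 CPM and so passed the detection level of 10 CPM in both libraries. Of the 5 listed muscle genes 2 were detected, the higher being Mir206 at 529 and 552 CPM, and the median of the list was 0 CPM. The limit on hairpins with near-identical copies holds for the muscle list too. Endothelial Mir126a had 24254 and 24135 CPM, erythroid Mir451a 331 and 451 CPM, and Mir155 of white blood cells 396 and 431 CPM.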

How the data were processed

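Small RNA counts were taken from 2 libraries of 1 group. The authors deposited raw counts of reads per miRNA gene, made on mm10 with GENCODE M4 per the notes deposited with the samples; which aligner and counter were used, and how, is not given in those sources. Files have no header; from the values, the second count column was read as the sense strand. Unmapped, multimapping (24.7% and 23.4% of reads) and featureless reads (7.44% and 6.47%) stayed out of totals. Symbols and positions are those of GENCODE M21, which uses that assembly (1894 of 1973 identifiers matched, version removed), hairpins searched for shared stretches from its transcripts, and printed miRNA sequences from RefSeq. The genome sequence was not used here. Mir10b and Mir196a-2 carry another identifier version in M21 than in the files, so their counted span may differ.

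Library differences used an exact binomial test with TMM factors from edgeR 4.0.16 over the tested genes. The quasi-likelihood test of edgeR needs 2 groups and was not used. Ratios have a prior count of 0.5. The test was also run on simulated data. The outcome is not given here, so that run is not evidence for the calls or for their error rate in these libraries. Python 3.11.15, scipy 1.17.1, R 4.3.3 and, as an alternative, DESeq2 1.42.0 size factors were used. Alternatives also covered the count column, denominator, filter, prior count, detection level, hairpin length and each library alone. The members, lists, pairs and the rule for named genes (all members, pairs, relatives, rank neighbours, leading markers) were chosen with earlier results of these data known.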

Additional observations from a re-analysis of the deposited data

How the results depend on the processing

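The share of the 6 genes, 12.9% ± 0.19 of sense counts (SD, n = 2), was 12.6% with both strands counted, 5.86% of all reads in the files and 14.5% with Mir335, the most abundant gene, left out of the total. It was 12.7% without the counted reads of Mir196a-1 and Mir196a-2, which says nothing of reads missing from them, and also 12.7% in replicate 2 alone. The count of 3 genes that differed between the libraries held under scaling by total counts, DESeq2 size factors, both strands, filters of 1 and 100 counts, TMM factors over all listed genes (chosen after seeing the data) and the median spread. It fell to 1 with the mean spread, which widens the error of every gene. All genes called went from 90 to 48 with the median spread and 12 with the mean spread, and lay between 83 and 94 otherwise.

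The log2 ratio of Mir10b between the libraries changed sign, to 0.011 with total counts, 0.006 with DESeq2 size factors or TMM factors over all genes, and 0.005 with both strands; it passed no test under any of these. Counts per nucleotide of hairpin gave log2 ratios of 1.82 for Mir10b over Mir10a, 10.90 for Mir196b over Mir196a-1, 5.65 for Mir196a-2 over Mir196a-1, 1.09 for Mir615 over Mir196a-2, 8.43 for Mir10a over Mir196a-1 and 0.65 for Mir196b over Mir10b. A prior count of 5 gave 10.59 for Mir196b over Mir196a-1 and 5.34 for Mir196a-2 over Mir196a-1. With each library alone the ratios ranged from 1.10 to 1.15 (Mir10b over Mir10a), 10.63 to 10.64 (Mir196b over Mir196a-1), 5.23 to 5.27 (Mir196b over Mir196a-2), 5.36 to 5.41 (Mir196a-2 over Mir196a-1), 1.13 to 1.27 (Mir615 over Mir196a-2), 8.48 to 8.61 (Mir10a over Mir196a-1) and 0.93 to 1.01 (Mir196b over Mir10b). All 6 genes were detected at 1 CPM and 5 at 100 or 1000 CPM. Depth limits Mir196a-1, at 133 and 149 reads.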
